A study of Mus musculus with 12 samples.

Results

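Transcripts of 10 genes of the synaptonemal complex and of meiotic cohesin were measured by RNA-seq in sorted mouse spermatogonia, the germ cells of the testis that divide by mitosis and then enter meiosis. The genes were chosen by symbol, Sycp1, Sycp2, Sycp3, Syce1, Syce2, Syce3, Tex12, Smc1b, Rec8 and Stag3, out of 53715 genes in the deposited count table, and all 10 passed the filter on low counts. The lowest count of any of them in a library was 127. The 12 libraries form 4 groups of 3, WT and Tet1KO at 3 months of age and WT and Tet1KO at 11 months, all on a mixed C57BL6/129 background with no treatment named. A library held the RNA of 1000 cells taken by FACS, amplified by Smart-seq2, a full-length cDNA method. The labels do not give the sort markers, the kind of Tet1 allele, the tissue in which it acts or the number of animals behind a library. Nothing in them states that replicates are different animals, so a p-value here is set against a spread between libraries that may be technical. The codes of WT replicate 2 and Tet1KO replicate 1 of 3 months begin with DY and those of the other libraries with AK, and the labels do not explain the prefix.

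During meiotic prophase, homologous chromosomes are joined along their length by the synaptonemal complex, a zipper-like protein structure. SYCP2 and SYCP3 build its 2 lateral elements on the chromosome axes, SYCP1 spans the gap between them as the transverse filament, and SYCE1, SYCE2, SYCE3 and TEX12 make up the central element. The axes themselves are organised by cohesin, a ring complex in which the meiotic subunits SMC1B, REC8 and STAG3 take the places that SMC1A, RAD21 and STAG1 or STAG2 hold in mitotic cells. In male germ cells the transcripts of several of these genes appear in spermatogonia, ahead of the structure itself. TET1, a dioxygenase that oxidises 5-methylcytosine in DNA, is known to act on promoters of meiotic genes in fetal female germ cells.

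Total counts per library were 8325159 to 18223645. Tet1 itself was near the detection limit, with 0 to 16 counts in the WT libraries of 3 months, 6 to 18 in those of Tet1KO, and at 11 months 1 to 16 (WT) and 1 to 17 (Tet1KO). These counts over the whole gene do not check the genotype, because the deleted part is not stated, and the groups carry the names of the labels. Markers of spermatogonia were present in every library. The summed level of 10 genes of differentiating spermatogonia was 989 to 2326 CPM (counts divided by TMM-scaled library size), that of 12 genes of undifferentiated spermatogonia 224 to 566 CPM, and that of 10 genes of leptotene and zygotene spermatocytes 953 to 2748 CPM. Genes of pachytene and later spermatocytes, 11 in the list, summed to 2025 CPM in WT replicate 1 and 2090 CPM in Tet1KO replicate 2 of 3 months. In the other libraries they summed to between 102 and 484 CPM. Those 2 libraries are the ones that stand apart in what follows, by this list only. Spermatid genes summed to 2774 and 1339 CPM in them. At 11 months the spermatid sum was 2592 CPM in WT replicate 1 and 2376 CPM in Tet1KO replicate 1. In the remaining libraries it was 287 to 1055 CPM. Summed levels over the 12 libraries were 287 to 2774 CPM for 11 spermatid genes, 149 to 377 CPM for 13 Sertoli genes, 22.9 to 372 CPM for 6 peritubular myoid genes, 50.3 to 592 CPM for 9 leukocyte genes and 2.26 to 13.2 CPM for 5 Leydig genes. No gene of these lists was at 0 in all libraries, and the Leydig enzymes Hsd3b1, Cyp11a1 and Cyp17a1 stayed below 1 CPM in each. In bulk samples of this kind, fewer cells of a type and less RNA per cell cannot be told apart.

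The promoters of the genes bear on how they are kept silent outside the germ line, where a variant Polycomb complex that contains MAX, MGA and E2F6 is known to act. The 250 bases before each annotated start (RefSeq, GRCm38.p6) were available for all 10 genes in 12 windows, since Syce2 and Syce3 have 2 starts each. The windows held 5 to 26 CpG dinucleotides, against a median of 6 over 32851 mouse windows of the same length, and 11 of the 12 lay above that median. The E-box letters CACGTG, searched on both strands, were present in 5 of the 12 windows and in 6.02% of all windows. These 5 windows belong to Sycp1, Sycp3, Syce2, Tex12 and Stag3. The letters GCGGGA are part of the E2F motif and were also searched on both strands. They were present in 6 of the 12 windows and in 16.9% of all windows. Those windows belong to 5 of the 10 genes, Sycp3, Syce2 (both starts), Tex12, Smc1b and Rec8. The 2 windows of Syce2 overlap, as do those of Syce3, so the match at both Syce2 starts may be the same site. Both motifs hold a CG, and the shares over all windows were not matched for CpG content. No match of one motif overlaps a match of the other in the windows printed here. These matches describe the letters and do not show that a factor binds there. The 4 windows below are those of the genes with the highest and the lowest transcript level per length (Sycp3 and Rec8), of Tex12, whose ratio to Syce2 is described below, and of Stag3, the gene that varied least among libraries by its highest over lowest value. Each is written 5′ to 3′ on the strand of the gene, with motif matches in capitals.
Sycp3, chr10:88459337-88459586, plus strand: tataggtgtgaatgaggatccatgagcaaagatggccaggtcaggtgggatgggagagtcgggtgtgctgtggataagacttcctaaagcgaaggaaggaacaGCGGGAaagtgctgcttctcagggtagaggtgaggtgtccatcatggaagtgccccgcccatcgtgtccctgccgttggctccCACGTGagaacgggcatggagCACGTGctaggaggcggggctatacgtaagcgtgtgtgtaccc
Tex12, chr9:50561269-50561518, minus strand: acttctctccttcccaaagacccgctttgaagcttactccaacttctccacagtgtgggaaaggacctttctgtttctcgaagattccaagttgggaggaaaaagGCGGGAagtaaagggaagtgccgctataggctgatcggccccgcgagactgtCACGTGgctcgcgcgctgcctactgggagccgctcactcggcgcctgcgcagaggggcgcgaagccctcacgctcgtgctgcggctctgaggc
Stag3, chr5:138280259-138280508, plus strand: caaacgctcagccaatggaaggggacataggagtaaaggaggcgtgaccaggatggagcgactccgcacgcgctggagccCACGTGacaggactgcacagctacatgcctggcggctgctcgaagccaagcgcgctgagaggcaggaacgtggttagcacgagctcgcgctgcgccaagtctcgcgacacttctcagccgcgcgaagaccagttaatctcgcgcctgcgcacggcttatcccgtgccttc
Rec8, chr14:55617916-55618165, plus strand: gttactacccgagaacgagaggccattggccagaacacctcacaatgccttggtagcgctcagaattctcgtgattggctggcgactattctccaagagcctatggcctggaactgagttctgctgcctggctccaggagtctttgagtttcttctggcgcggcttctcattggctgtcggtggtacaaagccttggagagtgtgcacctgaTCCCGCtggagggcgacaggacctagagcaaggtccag
The Sycp3 window holds 2 matches to CACGTG and 1 to GCGGGA among 12 CpG. That of Tex12 holds 1 of each among 20 CpG, that of Stag3 1 match to CACGTG among 26 CpG, and that of Rec8 1 match to GCGGGA, on the opposite strand, among 10 CpG.

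Levels per length, in CPM per kb of exon, differed widely among the 10 genes. Sycp3 was the most abundant, at 920.5 ± 342 CPM per kb (SD over 12 libraries). Only 58 of 19815 tested genes had a higher mean on this scale. Its level and rank may include fragments of Chpt1, which shares 52.2% of its exon length on the other strand. Of the 4 central element genes 3 followed, with Tex12 at 326 ± 101, Syce2 at 316 ± 83.9 and Syce1 at 227 ± 31.3 CPM per kb. Sycp1 (120 ± 29.7), Smc1b (109 ± 22.7) and Syce3 (108 ± 32.6) formed a middle tier, and Sycp2 (38.4 ± 9.47), Stag3 (29.2 ± 4.44) and Rec8 (6.40 ± 1.48) were the lowest. Sycp3 exceeded Tex12, Syce1 exceeded Sycp1, Syce3 exceeded Sycp2 and Stag3 exceeded Rec8 in 12 of 12 libraries, and the last 2 pairs had ranges that did not overlap. Syce2 exceeded Syce1 in 10 and Sycp2 exceeded Stag3 in 11 of 12. Sycp1 and Smc1b (8 of 12 in that order) and Smc1b and Syce3 (7 of 12) did not differ beyond their spread. Tex12 exceeded Syce2 in 7 of 12, an order that was not the same at the 2 ages: it did so in the 6 libraries of 3 months and in 1 of the 6 of 11 months. For comparison, the meiotic entry gene Stra8 stood at 388 CPM per kb and Gfra1, the GDNF receptor gene of undifferentiated spermatogonia, at 5.04.

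The 10 genes are given by their role, with the CPM of replicates 1, 2 and 3 in each group, in the order WT and Tet1KO at 3 months, then WT and Tet1KO at 11 months. Coordinates are those of the deposited annotation in mm10, from the first to the last exon.

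Of the lateral element genes, Sycp3 (chromosome 10, 88459569 to 88473236, plus strand) stood at 1144, 812 and 2100 CPM in WT and 1144, 841 and 1402 CPM in Tet1KO at 3 months. At 11 months its values were 1243, 801 and 1122 CPM in WT and 1211, 463 and 1679 CPM in Tet1KO. The highest and the lowest of these lie in different groups, and the 4 groups overlap. Sycp3 shares 660 exonic bases, 52.2% of its exon length and 7.93% of that of Chpt1, with the choline phosphotransferase gene Chpt1 on the opposite strand. Because the counting did not use strand and counted fragments for each gene they overlap, the 2 genes cannot be told apart in that stretch. Chpt1 counts were 0.676 to 0.813 times those of Sycp3 in the 12 libraries. No other gene of the 10 shared exonic bases with a neighbour. Sycp2 (chromosome 2, 178345293 to 178407685, minus strand), whose product is needed to place SYCP3 on the axis, stood at 255, 190.0 and 341 CPM in WT and 231, 171 and 279 CPM in Tet1KO at 3 months. At 11 months the values were 240.5, 190.1 and 202 CPM in WT and 244, 130.2 and 274 CPM in Tet1KO, again with overlap among all groups. The ratio of Sycp3 to Sycp2 per length ran from 16.8 to 29.0.

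Sycp1 (chromosome 3, 102818499 to 102936100, minus strand), the transverse filament gene, stood at 444, 423 and 571 CPM in WT and 432, 298 and 506 CPM in Tet1KO at 3 months. At 11 months it stood at 420.9, 334 and 358 CPM in WT and 509, 237 and 577 CPM in Tet1KO. All 3 WT libraries of 11 months lay below all 3 of 3 months, by a margin of 422.7 against 420.9 CPM for the nearest pair, while the Tet1KO libraries of the 2 ages overlapped. Sycp1 was 1 of 10 genes without overlap between the ages in WT, close to the 11.5% of all tested genes without it, so this is not a result about the 10 genes.

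Among the central element genes, Tex12 (chromosome 9, 50556819 to 50561325, minus strand), whose product assembles with SYCE2, stood at 355, 304 and 530 CPM in WT and 354, 260 and 402 CPM in Tet1KO at 3 months. At 11 months its values were 322, 193 and 297 CPM in WT and 385, 147 and 421 CPM in Tet1KO. Syce2 (chromosome 8, 84872111 to 84888221, plus strand) stood at 564, 507 and 882 CPM in WT and 574, 438 and 683 CPM in Tet1KO at 3 months. Its values at 11 months were 676, 462 and 741 CPM without and 703, 362 and 865 CPM with the knockout. For both genes Tet1KO replicate 2 of 11 months was the lowest library and WT replicate 3 of 3 months the highest. Syce1 (chromosome 7, 140777229 to 140787852, minus strand), which links the central element to SYCP1, had a narrower range of 231 to 396 CPM, with group means between 312 ± 82.1 CPM (SD, n = 3) in Tet1KO at 11 months and 345 ± 45.6 CPM in Tet1KO at 3 months. Syce3 (chromosome 15, 89390174 to 89410503, minus strand), a small central element protein gene, was nearly equal in the 3 Tet1KO libraries of 3 months, at 53.3, 54.0 and 56.1 CPM. In Tet1KO at 11 months it was spread from 32.5 to 98.8 CPM, a range that holds every other library.

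Of the cohesin genes, Smc1b (chromosome 15, 85064689 to 85131964, minus strand) stood at 454, 365 and 642 CPM in WT and 379.8, 314 and 469 CPM in Tet1KO at 3 months. At 11 months it stood at 495, 477 and 478 CPM in WT and 420.5, 308 and 487 CPM in Tet1KO. Its Tet1KO mean was the lower at both ages, 387 ± 77.6 against 487 ± 141 CPM and 405 ± 90.6 against 483 ± 10.4 CPM (SD, n = 3), with 2 Tet1KO libraries inside the WT range at 3 months and 1 at 11 months. Stag3 (chromosome 5, 138280240 to 138312393, plus strand) ran from 132.5 to 217 CPM, the smallest highest-over-lowest ratio of the 10 (1.64-fold), although Syce1 had the smaller SD of log2 CPM (0.212 against 0.219), and its 4 group means lay between 161 ± 21.7 and 179 ± 38.5 CPM. Rec8 (chromosome 14, 55618037 to 55625395, plus strand), the kleisin that closes the meiotic ring, stood at 13.9, 17.96 and 17.04 CPM in WT and 17.9, 12.6 and 20.3 CPM in Tet1KO at 3 months. Its WT values at 11 months were 20.8, 23.9 and 16.9 CPM, and those of Tet1KO 27.9, 21.3 and 14.95 CPM. Both means of 11 months were above those of 3 months, and the libraries of the 2 ages overlapped in each genotype.

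**Figure D1:**
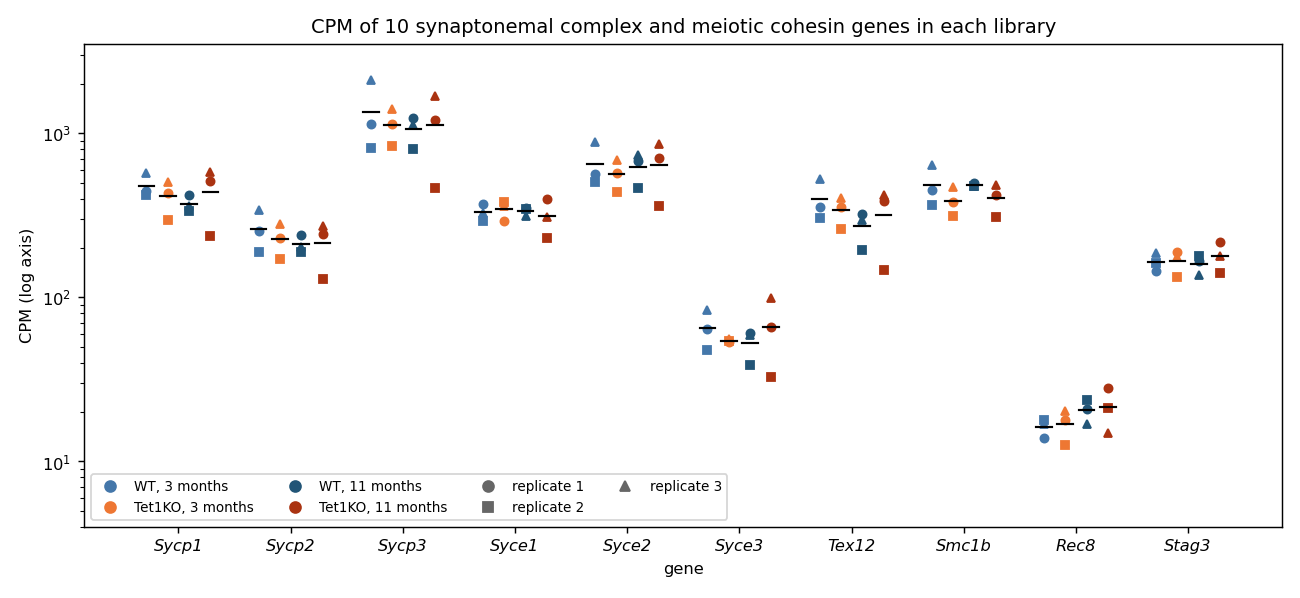
CPM on a log axis for the 10 genes, with 1 point per library, coloured by group and shaped by replicate, and a black bar at each group mean. WT and Tet1KO of the same age overlap for each of the 10 genes, and Sycp3 spans 463 to 2100 CPM.

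The meiotic cohesin subunits stood in unequal relation to their mitotic counterparts. Per length, Smc1b was 10.03 to 25.3 times Smc1a (6.67 CPM per kb on average), and Smc3, the partner that both share, stood at 51.5 CPM per kb. Stag3 was 1.05 to 1.53 times the sum of Stag1 (13.8) and Stag2 (9.81 CPM per kb). The kleisins had the opposite order, with Rec8 at 0.0716 to 0.249 times Rad21 (53.8 CPM per kb) and Rad21l, a second meiotic kleisin, at 5.04 CPM per kb. Rec8 was 0.690 to 3.63 times Rad21l. Smc1b over Smc1a and Stag3 over Stag1 plus Stag2 were thus above 1 and Rec8 over Rad21 below 1 in all 12 libraries.

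**Figure D2:**
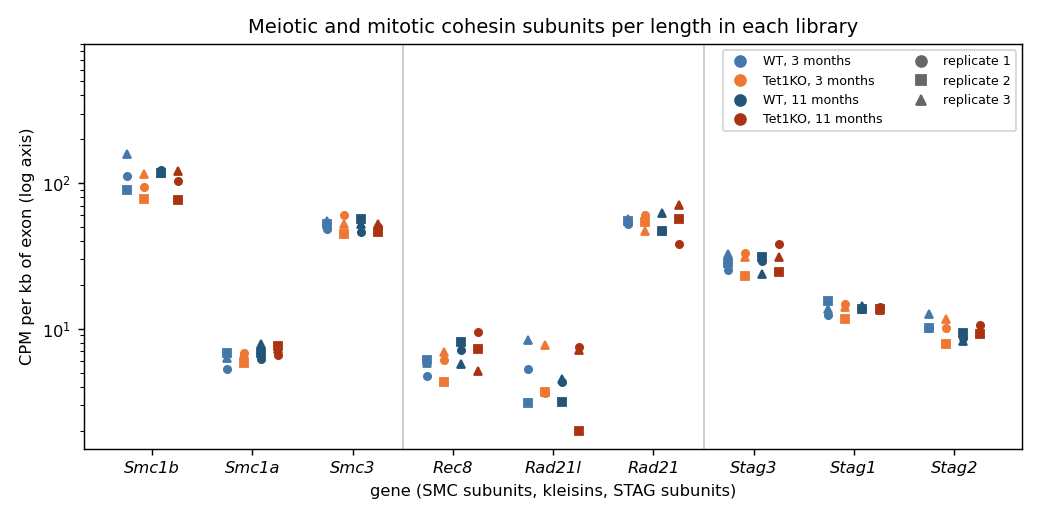
CPM per kb of exon on a log axis for SMC subunits, kleisins and STAG subunits, 1 point per library, coloured by group and shaped by replicate. Smc1b lies above Smc1a and Stag3 above Stag1 and Stag2, while Rec8 and Rad21l lie far below Rad21.

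Ratios between subunits were compared between groups with two-sided exact permutation tests on log2 ratios, 5 ratios in 4 comparisons and 20 tests in all. With 3 libraries against 3 the smallest p is 0.1, so no comparison could pass 0.05, and every p adjusted over the 20 tests was 1.0. Smc1b over Smc1a averaged 19.9 ± 6.14 in WT and 14.8 ± 2.05 in Tet1KO at 3 months (SD, n = 3, exact p = 0.4) and 17.3 ± 2.27 and 14.1 ± 3.52 at 11 months (n = 3, exact p = 0.3). Tex12 over Syce2 did not overlap between the ages. At 3 months it was 1.22, 1.16 and 1.16 in the WT libraries and 1.195, 1.15 and 1.14 in those of Tet1KO. At 11 months it was 0.923, 0.811 and 0.775 in the WT libraries and 1.06, 0.784 and 0.944 in those of Tet1KO. The 6 libraries of 3 months therefore lay between 1.14 and 1.22 and the 6 of 11 months between 0.775 and 1.06, with no overlap and with the exact permutation p at its smallest value of 0.1 in each genotype (n = 3). The same holds among the libraries coded AK alone. This ratio was singled out after its values were seen. How many other gene pairs have a ratio without overlap between the ages was not counted. Any ratio without overlap within a genotype has this smallest p. Of all tested single genes, 11.5% in WT and 6.2% in Tet1KO did not overlap between the ages. These shares are for single genes within 1 genotype and give no background for a ratio of 2 genes over both genotypes. The mean log2 of Tex12 over Syce2 differed by -0.50 in WT and -0.33 in Tet1KO, 11 minus 3 months. Between the genotypes it differed by -0.02 at 3 and 0.15 at 11 months. The other ratios overlapped between the groups compared, with exact permutation p of 0.3 or more.

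**Figure D3:**
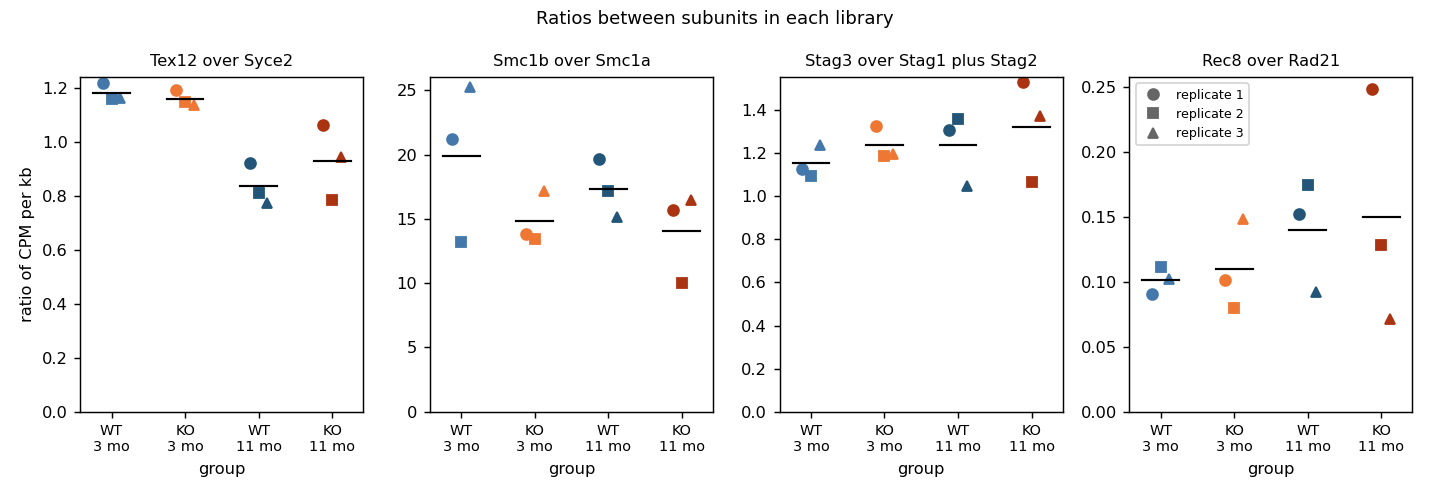
Ratios of CPM per kb in each library, with the axis from 0, points shaped by replicate and a black bar at the group mean, KO standing for Tet1KO. Tex12 over Syce2 lies between 1.14 and 1.22 in the libraries of 3 months and between 0.775 and 1.06 in those of 11 months, and the other 3 ratios overlap between ages and genotypes.

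The main question of the design is whether these genes differ between Tet1KO and WT. At 3 months none of the 10 genes passed the test (edgeR quasi-likelihood F test, Benjamini-Hochberg adjustment over 19815 genes, threshold 0.05), and of all genes 0% passed. At an unadjusted p under 0.05 the count was also 0 of 10, against 1.14% of all genes, and for 0 of 10 the CPM of the groups did not overlap, against 6.94% of all genes. The log2 fold changes, Tet1KO over WT, ran from -0.33 ± 0.23 (SE) for Smc1b to 0.07 ± 0.19 for Syce1. Of the lateral and transverse genes, Sycp1 had -0.22 ± 0.30, Sycp2 -0.21 ± 0.29 and Sycp3 -0.26 ± 0.45. The central element genes Syce2 (-0.20 ± 0.33), Syce3 (-0.26 ± 0.34) and Tex12 (-0.23 ± 0.37) had values of the same size, and Rec8 (0.05 ± 0.26) and Stag3 (0.01 ± 0.19) were near 0. Estimates were below 0 for 7 genes and above 0 for 3, with a median of -0.21 against -0.02 over all tested genes. Of all tested genes 46.8% had an estimate above 0. The 95% intervals of 7 of the 10 lay within a 2-fold change either way. For Stag3 the interval ran from 0.752 to 1.35-fold and for Syce1 from 0.783 to 1.40-fold, whereas for Sycp3 it ran from 0.423 to 1.65-fold. The median was -0.36 among libraries coded AK, -0.11 without both libraries that stand apart, and 0.08 without WT replicate 3, so its sign rests on that library. Summed Sertoli markers were 233.7 to 377 CPM in WT and 149 to 212 CPM in Tet1KO libraries of 3 months. That list holds Dmrt1, which is also listed among the meiotic entry regulators, so the sum may not come from Sertoli cells alone. Undifferentiated spermatogonial markers were 224 to 381 CPM in WT and 365 to 566 CPM in Tet1KO, with 9 of 12 estimates above 0 (median 0.30), and 10 of 11 spermatid marker estimates were below 0 (median -0.44). No marker passed the edgeR test, and the part of these markers in the values of the 10 genes was not tested.

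At 11 months again 0 of 10 genes passed the edgeR test, where 0% of all genes did, and 0 of 10 had an unadjusted p under 0.05, against 1.65% of all genes. The groups overlapped for all 10, and did not overlap for 5.36% of all genes. The log2 fold changes were 0.32 ± 0.34 (SE) for Syce3, 0.25 ± 0.30 for Sycp1, 0.23 ± 0.37 for Tex12, 0.16 ± 0.19 for Stag3 and 0.08 ± 0.45 for Sycp3. Rec8 (0.06 ± 0.26), Syce2 (0.04 ± 0.33) and Sycp2 (0.03 ± 0.29) were near 0, and Syce1 (-0.10 ± 0.19) and Smc1b (-0.26 ± 0.23) were below it. The median was 0.07 against 0.02 over all tested genes, with 8 values above 0 and 2 below, and 7 of the 10 intervals lay within 2-fold. Of all tested genes 53.8% had an estimate above 0. Same-numbered libraries deviated together at this age, and with the replicate number as a block the median was 0.0029, with 5 values above 0 and 5 below and again no call. The median was -0.09 without Tet1KO replicate 3 and 0.31 without Tet1KO replicate 2 of that age. In Tet1KO at 11 months the summed myoid markers were 22.9 to 54.9 CPM, against 71.4 to 241 CPM in WT. Estimates were above 0 for 9 of 9 leukocyte markers (median 0.74), 11 of 11 spermatid (0.22) and 9 of 11 pachytene and later markers (0.46). They were below 0 for 9 of 11 Sertoli markers (median -0.92). Above 0 were 6 of 12 undifferentiated (median 0.05), 4 of 10 differentiating (-0.03) and 4 of 10 leptotene and zygotene markers (-0.03). No marker passed the edgeR test. The part of these markers was not tested.

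The genotype difference itself was compared between the ages. No gene of the 10 passed the edgeR test, as 0% of all genes did, and none had an unadjusted p under 0.05, against 1.57% of all genes. The change in the log2 fold change, 11 minus 3 months, was 0.58 ± 0.48 (SE) for Syce3, 0.47 ± 0.42 for Sycp1 and 0.46 ± 0.52 for Tex12, and -0.17 ± 0.27 for Syce1. The median was 0.24, against 0.06 over all tested genes, and 9 of the 10 values were above 0, against 55.6% of all tested genes. Most of the 10 genes were high or low in the same libraries, so their signs are not separate observations. The median was 0.38 among libraries coded AK, 0.14 without both libraries that stand apart, and -0.05 without WT replicate 3 of 3 months. Only 4 of the 10 intervals lay within 2-fold, and that of Sycp3 reached from 0.485 to 3.32-fold. In this comparison 9 of 9 leukocyte (median 1.24) and 11 of 11 spermatid marker estimates (median 0.70) were above 0 and 6 of 6 myoid marker estimates below it (median -2.27), none past the edgeR test, and their part was not tested.

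**Figure D4:**
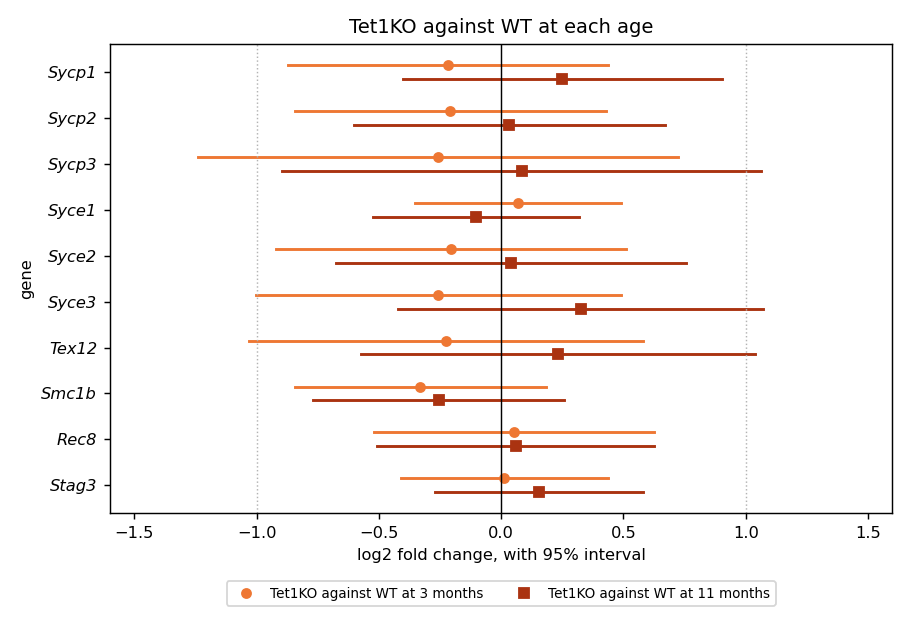
Log2 fold changes of Tet1KO over WT with 95% intervals from the edgeR fit, circles for 3 months and squares for 11 months, with dotted lines at a 2-fold change. All 20 intervals include 0, and that of Sycp3 is the widest at both ages.

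Between the ages in WT, 0 of 10 genes passed the edgeR test (0% of all genes) and 0 of 10 had an unadjusted p under 0.05, against 5.67% of all genes. Tex12 had the largest estimate, -0.55 ± 0.37 (SE, 11 over 3 months, adjusted p = 0.789), followed by Sycp1 (-0.37 ± 0.30), Sycp3 (-0.36 ± 0.45), Sycp2 (-0.31 ± 0.29) and Syce3 (-0.31 ± 0.34). Rec8 had 0.33 ± 0.26, and Smc1b (-0.01 ± 0.23), Stag3 (-0.03 ± 0.19), Syce1 (0.03 ± 0.19) and Syce2 (-0.06 ± 0.33) were near 0. Sycp1 alone had libraries that did not overlap between the ages, 1 of 10 genes, where 11.5% of all genes did. The median was -0.18 against -0.06 over all tested genes, -0.30 among libraries coded AK, -0.24 without both libraries that stand apart, and 0.07 without WT replicate 3 of 3 months. In WT the summed level of pachytene and later markers was 2025, 281 and 154 CPM at 3 months and 243, 191 and 153 CPM at 11 months, and their part was not tested.

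In Tet1KO the same age comparison gave 0 of 10 genes by the edgeR test (0% of all genes), 0 of 10 at an unadjusted p under 0.05, against 2.33% of all genes, and 0 of 10 without overlap, against 6.2%. Rec8 again had the highest estimate, 0.34 ± 0.26 (SE), next to its 0.33 ± 0.26 in WT. The next were Syce3 (0.27 ± 0.34), Syce2 (0.19 ± 0.33), Stag3 (0.11 ± 0.19), Sycp1 (0.10 ± 0.30) and Smc1b (0.06 ± 0.23). Those below 0 were Sycp3 (-0.01 ± 0.45), Sycp2 (-0.07 ± 0.29), Tex12 (-0.09 ± 0.37) and Syce1 (-0.14 ± 0.19). The median was 0.08 against -0.01 over all tested genes, and 9 of the 10 intervals lay within 2-fold. Of all tested genes 48.0% had an estimate above 0. The median was 0.08 among libraries coded AK, -0.07 without both libraries that stand apart, 0.31 without Tet1KO replicate 2 and -0.14 without Tet1KO replicate 3 of 11 months. Myoid marker estimates were below 0 for 6 of 6 (median -2.75), those of pachytene and later markers for 11 of 11 (median -1.06), and leukocyte marker estimates were above 0 for 9 of 9 (median 0.83). None passed the edgeR test, and their part was not tested. Comparisons of the same age or genotype share libraries, and their values are given side by side only.

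Libraries of a group were spread widely, and most of the 10 genes were high or low in the same libraries. The summed level of the 10 genes was 5680 CPM in WT replicate 3 of 3 months, which was the highest library for Sycp2, Sycp3, Syce2, Tex12 and Smc1b, and 2073 CPM in Tet1KO replicate 2 of 11 months, which was the lowest for 8 genes. Together the genes took 0.509% and 0.240% of the counts of these libraries. In log2 CPM relative to each gene's own mean over 12 libraries, Sycp3 stood 0.95 above in the first and 1.23 below (a deviation of -1.23) in the second. The highest over the lowest library was 4.53-fold for Sycp3, 3.61-fold for Tex12 and 3.03-fold for Syce3, and 1.71-fold for Syce1 and 1.64-fold for Stag3. Rec8 departed most from the shared pattern. It was the one gene above its own mean in Tet1KO replicate 2 of 11 months, by 0.21, and it lay below its mean in WT replicate 3 of 3 months, by a deviation of -0.11. The root mean square distance of a gene's log2 profile from the mean profile of the 10 was 0.42 for Rec8, against 0.10 for Sycp2, 0.12 for Sycp1 and 0.15 for Syce2.

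**Figure D5:**
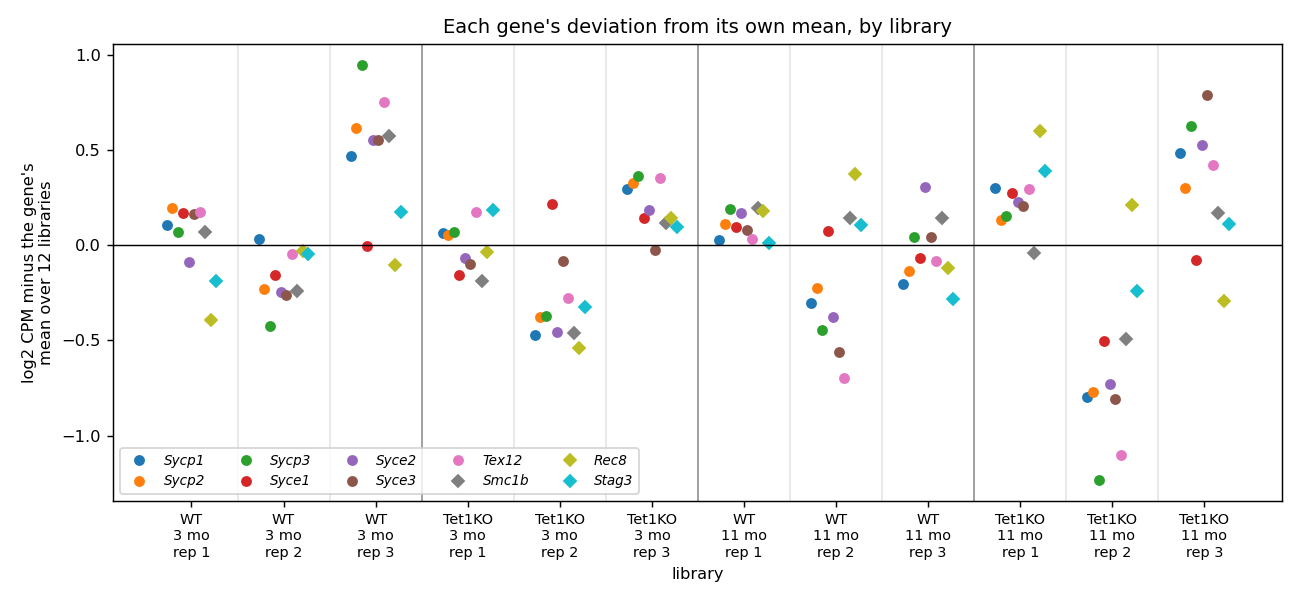
Deviation of log2 CPM from each gene's mean over the 12 libraries, by library, with circles for synaptonemal complex genes and diamonds for cohesin genes. Most genes lie above 0 in WT replicate 3 of 3 months and below 0 in Tet1KO replicate 2 of 11 months, and Rec8 goes the other way in both.

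Stage markers moved with some of these libraries and not with others. In Tet1KO replicate 2 of 11 months the differentiating spermatogonial markers summed to 989 CPM and the leptotene and zygotene markers to 953 CPM, the lowest of the 12 libraries, and the undifferentiated markers to 541 CPM, while leukocyte markers were at their highest, 592 CPM. Tet1KO replicate 3 of 11 months had the second highest summed level of the 10 genes, 4906 CPM, with differentiating markers at 1527 CPM and leptotene and zygotene markers at 1562 CPM. Leptotene and zygotene markers were highest in Tet1KO replicate 1 of 11 months, at 2748 CPM, where the 10 genes summed to 4180.0 CPM, and stood at 2097 CPM in WT replicate 3 of 3 months. Stra8 stood at 240 CPM in Tet1KO replicate 2 of 11 months, against 1137 CPM in Tet1KO replicate 1 of that age. Hormad1 is the axis gene counted in both the leptotene list and the other axis genes. It stood at 146 CPM in Tet1KO replicate 2 of 11 months and at 752 CPM in WT replicate 3 of 3 months. In WT replicates 1 and 3 of 3 months Stra8 stood at 646 and 910 CPM and Kit at 70.1 and 75.8 CPM. Dmc1 stood there at 123 and 131 CPM, Prdm9 at 54.1 and 70.2 CPM and Spo11 at 22.7 and 6.04 CPM. In WT replicate 3 of 3 months the undifferentiated markers were at their lowest, 224 CPM. In Tet1KO replicate 2 of 3 months, the lowest library for Rec8 and Stag3, the undifferentiated markers were at their highest, 566 CPM. The part of these stage markers in the values of the 10 genes was not tested. The genes outside the 10 whose profile over the 12 libraries lay nearest to their mean profile were Mbip (a distance of 0.074 in log2 CPM), BC024063 (0.079), Ccdc90b (0.083), Cep83 (0.085) and Rsrc2 (0.087), against a median of 0.36 over 9999 genes.

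The wider pathway showed no called gene in any of the 5 comparisons, in each of which 0% of all tested genes were called. This is therefore not a result about these lists. Of 15 other synaptonemal complex and axis genes 14 were tested, of 19 mitotic and shared cohesin genes 19 and of 16 regulators of meiotic entry 15. The list named mitotic and shared cohesin genes also holds regulators such as Espl1 and the meiotic kleisin gene Rad21l. Of 9 telomere attachment symbols 8 matched a gene, and all 8 were tested, while the symbol Speedy1a matched none. In the edgeR fit 0 passed in either direction. The most abundant per length were Skp1a, a ubiquitin ligase subunit gene (430 CPM per kb), Pttg1, the securin gene (105 CPM per kb), Spdya, a CDK2 activator gene (47.2 CPM per kb), and Dazl, a germ cell RNA-binding protein gene (698 CPM per kb). Among the cohesin genes Espl1, which encodes the separase that cleaves kleisins, stood at 36.3, 39.7 and 34.5 CPM in WT and 31.1, 26.4 and 23.7 CPM in Tet1KO at 3 months, a log2 fold change of -0.45 ± 0.16 (SE) with an edgeR unadjusted p of 0.0158 and an adjusted p of 1.0. Of the 19 genes of that list it was the 1 with an edgeR unadjusted p under 0.05, chosen for that p, against 1.14% of all genes. At 11 months the means were 32.4 ± 1.95 CPM in Tet1KO and 32.5 ± 4.71 CPM in WT (SD, n = 3). Nipbl, the cohesin loader gene, had a log2 fold change of -0.39 ± 0.18 between the ages in WT (edgeR unadjusted p = 0.0477, adjusted p = 0.774), again chosen for its p and 1 of 19, against 5.67% of all genes. Median log2 fold changes, Tet1KO over WT at 3 and at 11 months, were 0.04 and -0.06 for the other axis genes, -0.03 and 0.0047 for the mitotic and shared cohesin genes, 0.03 and 0.03 for telomere attachment and -0.0046 and -0.0052 for meiotic entry, next to -0.02 and 0.02 over all tested genes.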

How the data were processed

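RNA was sequenced from 12 libraries of sorted mouse spermatogonia. The authors deposited raw counts per gene. Per the file headers they were made with featureCounts 1.6.2 on GENCODE vM17 at mapping quality 30 or more, unstranded, with multi-mapping and multi-overlapping fragments counted. Per the submitters' processing notes HISAT2, SAMtools and mm10 were used. Symbols came from GENCODE vM21, for 53620 of 53715 genes. Exon length is that of the deposited table.

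Counts were tested with edgeR 4.0.16 (R 4.3.3), with filterByExpr (19815 genes), TMM and 1 mean per group over all 12 libraries. Standard errors come from the F statistic. The procedure was tested on simulated data. Alternatives were RLE factors, other filters, DESeq2 1.42.0, only the compared groups, the replicate number as a block, libraries of 1 code prefix (AK), 2 libraries of 3 months left out, and each library left out.

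The 10 genes and all lists were chosen with earlier results of these data known. Named genes are the 10, Chpt1, per further list the most abundant member per length and up to 3 members a comparison with unadjusted p under 0.05, and the 5 nearest profiles. Espl1 and Nipbl came from this rule. Stra8, Gfra1, Hormad1, Kit, Dmc1, Prdm9, Spo11, the other cohesin subunits shown and the ratios are examples outside it. Deviations of same-numbered libraries correlated at 0.37, 0.17 and 0.33 at 11 months, all over 0.1, and at -0.59, -0.18 and 0.30 at 3 months. The labels do not say that the numbers pair libraries, so the main fit has no block. Fits with the number as a block were run as alternatives, also at 11 months, where the numbers may pair the genotypes.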

Additional observations from a re-analysis of the deposited data

How the results depend on the processing

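The absence of calls among the 10 genes held under every alternative run, with a smallest adjusted p of 0.69. Over all genes the edgeR fit called 0 in each comparison, with 225, 326, 311, 1124 and 462 at an unadjusted p under 0.05 for the genotype at 3 months, at 11 months, their difference and the age in WT and in Tet1KO. DESeq2 called 2 (S100a8 and S100a9), 3 (these and Tpm2), 0, 0 and 7 genes, none of the 10, with the genes named after their values were seen. Signs are less secure: of 730 recomputed fold changes of the 10 genes 83 changed sign, in 35 of 50 results, none of which exceeded 0.36 in size.

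With the replicate block no call changed. It turned the log2 fold change, Tet1KO over WT at 11 months, to -0.029 for Sycp2, -0.024 for Syce2 and -0.080 for Sycp3, the Rec8 difference between the ages to -0.0035 and Smc1b, 11 over 3 months in WT, to 0.029. The labels do not say what same-numbered libraries share, at either age or between the ages. The Rec8 difference between the ages, 0.0073 as reported, was -0.0055 with DESeq2, -0.0065 with RLE factors and -0.024 without a filter, where Smc1b between the ages in WT became 0.022. With only libraries coded AK it was -0.065, Stag3 at 3 months was -0.078 and Syce1 between the ages in WT -0.015. Without both libraries that stand apart it was -0.066, the Smc1b difference -0.0080, and between the ages in Tet1KO Sycp1 was -0.088, Stag3 -0.031 and Smc1b -0.067.

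Leaving out each library in turn gave these ranges of log2 fold change where a sign turned. For Tet1KO over WT at 3 months they were Sycp3 -0.52 to 0.24, Rec8 -0.10 to 0.23, Syce1 -0.0078 to 0.19, Stag3 -0.071 to 0.15, Syce2 -0.36 to 0.11, Tex12 -0.39 to 0.069 and Sycp2 -0.39 to 0.059. At 11 months they were Syce3 -0.090 to 0.64, Tex12 -0.022 to 0.57, Sycp3 -0.33 to 0.45, Syce2 -0.23 to 0.32, Stag3 -0.0076 to 0.30, Sycp2 -0.17 to 0.29, Rec8 -0.18 to 0.26 and Syce1 -0.31 to 0.070. For the difference between the ages they were Sycp3 -0.18 to 0.70, Syce2 -0.085 to 0.52, Sycp2 -0.044 to 0.49, Stag3 -0.021 to 0.28, Smc1b -0.22 to 0.24 and Rec8 -0.23 to 0.19. Between the ages in WT they were Smc1b -0.18 to 0.27, Syce2 -0.21 to 0.25, Sycp3 -0.62 to 0.14, Syce1 -0.049 to 0.11 and Stag3 -0.12 to 0.095. In Tet1KO they were Syce3 -0.14 to 0.61, Syce2 -0.085 to 0.48, Sycp1 -0.14 to 0.41, Sycp3 -0.43 to 0.36, Stag3 -0.054 to 0.27, Tex12 -0.34 to 0.26, Smc1b -0.091 to 0.24, Sycp2 -0.28 to 0.20 and Syce1 -0.35 to 0.048. The cause was not tested. With 3 libraries per group the 95% intervals of 3 of the 10 genes reached past 2-fold in each genotype comparison.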
